A study of Mus musculus with 8 samples.

Results

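The tuft cell genes of taste signalling and eicosanoid synthesis were followed through a single-cell survey of mouse small intestinal crypts. They were found by their symbols among the 27998 genes of the count tables, and all 10 were present, each under 1 identifier. Dclk1, Trpm5, Plcb2, Gnat3 and Gnb3 stand for taste signalling, with Dclk1 taken along as the usual tuft cell marker, and Alox5ap, Alox5, Ltc4s, Ptgs1 and Hpgds stand for the synthesis of eicosanoids. The crypt cells came from adult mice, female and pooled within a genotype as the study states, and had been sorted for EpCAM, an epithelial surface protein. Mice labelled KO lacked ieCtnnb1 (genotype Ctnnb1 Δi.enh in the study), an enhancer upstream of Ctnnb1, which encodes β-catenin. Mice labelled WT were, by the study's account, controls that carried a LacZ reporter of that enhancer in the H11 locus, hence an added transgene, and not unmodified animals. The labels list 4 samples a group, but the values came as 1 pooled matrix per group with no map from barcodes to samples. The study's text names fewer pooled mice per genotype than the labels list samples, though 1 of its legends gives 4 control mice. Each group was therefore 1 sample, no test between WT and KO was possible, and all intervals below are 95% intervals that cover counting error only.

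Tuft cells are rare chemosensory cells of the intestinal epithelium. In the taste cascade that they share with the taste buds, a receptor acts through gustducin (Gnat3 is its alpha subunit and Gnb3 a beta subunit that pairs with it) and the phospholipase Plcb2, calcium is released, and the cation channel Trpm5 opens. Tuft cells are also known as a source of leukotrienes and prostaglandins: Alox5 with its helper protein Alox5ap starts leukotriene synthesis, Ltc4s makes leukotriene C4, Ptgs1 (cyclooxygenase-1) starts prostanoid synthesis and Hpgds makes prostaglandin D2.

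The WT matrix held 134876816 UMIs (unique molecular identifiers, the tags by which captured transcripts are counted) over 15987 barcodes, and the KO matrix 123794575 over 12763. After removal of barcodes with fewer than 200 genes or more than 30% mitochondrial UMIs, 13095 WT barcodes with a median of 6675 UMIs and 8658 KO barcodes with a median of 8691.5 UMIs were kept. Of all barcodes 57 occurred in both matrices (0.357% of WT and 0.447% of KO), and none of them was tuft-like or held 3 or more of the 10 genes. Ctnnb1 itself, which the deletion leaves in place and which therefore checks the labels only in part, stood at 119 CPM (UMIs of a gene per 1000000 UMIs) in WT and 91.8 CPM in KO over kept barcodes, or −0.37 (−0.41 to −0.34) on the log2 scale.

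A single cluster was tuft-like by markers that did not include any of the 10 genes. Of 17 such markers, among them Pou2f3, the transcription factor of the tuft lineage, and Rgs13, 14 were among its first 50 genes by fold. The 10 genes had also been kept out of the genes used for clustering, so their level in this cluster was not fixed by how it was made. It held 166 WT cells (1.27% of kept barcodes, 1.08% to 1.47%) and 87 KO cells (1.005%, 0.806% to 1.24%), which is −0.34 as a log2 ratio of KO to WT, with an interval that includes 0 (−0.73 to 0.05). The tuft-like cells differed in depth, with a median of 4153.5 UMIs in WT and 11501 UMIs in KO, and 57 WT cells but only 11 KO cells had fewer than 2000 UMIs. The 17 tuft markers themselves, all detected in both matrices, summed to 4692 CPM in WT and 2683 CPM in KO. RNA of other cell types was counted in them too. The 10 Paneth markers, all detected, summed to 123795 CPM in WT tuft-like cells and 79069 CPM in KO ones, against 319570 and 215193 CPM over all kept barcodes. The 10 goblet markers, also all detected, summed to 14278 and 6870 CPM (27398 and 20514 over all kept), and the 15 enterocyte markers, all detected, to 2641 and 7889 CPM (5131 and 17938). The 13 enteroendocrine markers, also below their level over all kept barcodes, summed to 154 and 109 CPM (488 and 443). Above that level were the 12 markers of transit-amplifying cells, at 1819 and 2256 CPM (1289 and 1494). So were the 11 of crypt base columnar stem cells, at 693 and 504 CPM (371 and 300). No UMI of any of the 9 T cell or 7 mast cell markers measured was found in tuft-like cells. Over all kept barcodes they summed to only 1.13 and 1.59 CPM (T cell) and 0.107 and 0.077 CPM (mast cell), so this absence says little. Myeloid markers summed to 9.03 and 5.003 CPM in tuft-like cells, against 7.18 and 4.996 CPM over all kept barcodes. B cell markers stood at 5.01 and 1.67 CPM, on 5 and 2 UMIs, against 1.43 and 2.97 CPM. Those of type 2 innate lymphoid cells stood at 1.003 and 0 CPM, against 5.37 and 2.03 CPM. The part of these differences between WT and KO tuft-like cells in the values below was not tested.

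Promoters are shown first for 4 members whose windows hold a short motif tied to factors of this setting outside annotated exons. RefSeq promoter windows (build GRCm38.p6) were found for 8 of the 10 genes, and not for Gnb3 and Alox5ap. In the 250 bases before each of the 9 starts, both strands were searched for AGGAAGT (bound by ETS factors such as Spib), ATGCAAAT (the octamer bound by POU factors, the family of Pou2f3), CTTTGAT (bound by the TCF/LEF partners of β-catenin), TATAAA and GGGCGG, none of which overlapped another. These letters were chosen with the sequences in view. AGGAAGT was found in 4 of the 9 windows, those of Ptgs1, Plcb2, Hpgds and Ltc4s, and in 7.69% of all 32851 promoter windows of that length. ATGCAAAT was found only in the Hpgds window, 174 bases before the start, and in 1.60% of all windows. CTTTGAT was found in 1 of the 2 Dclk1 windows, 153 bases before the start, and in 3.21% of all. TATAAA was in none of the 9 and in 12.4% of all, and GGGCGG in the Alox5 window and in 32.7% of all. Both Hpgds matches lie where annotated exon sequence overlaps the window, so that window is not shown. A match is a description of the letters and not a binding site. The windows follow 5′ to 3′ on the strand of the gene, without bases of annotated exons, with AGGAAGT or CTTTGAT in capitals: Ptgs1 from chr2:36230176-36230425 (plus strand), Plcb2 from chr2:118728439-118728688 (minus strand), Ltc4s from chr11:50238617-50238782 (minus strand) and Dclk1 from chr3:55242114-55242363 (plus strand).
Ptgs1: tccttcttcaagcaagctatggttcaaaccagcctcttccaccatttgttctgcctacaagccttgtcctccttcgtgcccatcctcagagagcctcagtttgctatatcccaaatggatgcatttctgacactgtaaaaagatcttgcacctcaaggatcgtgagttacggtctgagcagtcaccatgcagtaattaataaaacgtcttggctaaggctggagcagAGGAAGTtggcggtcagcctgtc
Plcb2: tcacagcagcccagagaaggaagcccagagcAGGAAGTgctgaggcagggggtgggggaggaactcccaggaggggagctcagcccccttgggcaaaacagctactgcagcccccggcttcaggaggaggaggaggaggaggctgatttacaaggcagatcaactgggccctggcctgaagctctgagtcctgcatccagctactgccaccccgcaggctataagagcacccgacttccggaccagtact
Ltc4s: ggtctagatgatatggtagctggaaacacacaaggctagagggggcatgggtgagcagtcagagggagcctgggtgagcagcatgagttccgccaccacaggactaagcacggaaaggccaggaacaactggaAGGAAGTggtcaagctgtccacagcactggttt
Dclk1: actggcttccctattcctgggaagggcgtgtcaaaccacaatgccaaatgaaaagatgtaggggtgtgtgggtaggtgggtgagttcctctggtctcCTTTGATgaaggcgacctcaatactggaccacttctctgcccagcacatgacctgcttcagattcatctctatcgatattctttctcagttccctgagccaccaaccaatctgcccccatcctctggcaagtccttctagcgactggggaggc

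Over all kept barcodes the taste members as a sum were lower in KO and the eicosanoid members higher. Dclk1 and the 4 taste genes summed to 9.45 CPM in WT (8.93 to 9.99) and 5.41 CPM in KO (5.001 to 5.85), or −0.80 (−0.94 to −0.66) on the log2 scale. The 5 eicosanoid genes summed to 11.04 CPM in WT (10.5 to 11.6) and 13.9 CPM in KO (13.2 to 14.6), or 0.33 (0.23 to 0.43) on the log2 scale. Within the eicosanoid set, Ltc4s had a log2 ratio of 0.94 (0.79 to 1.10) and Alox5ap of 0.36 (0.16 to 0.57), whereas Alox5, Ptgs1 and Hpgds stood at −0.75, −0.84 and −0.71. The sum of all 10 was 20.5 CPM in WT and 19.3 CPM in KO, or −0.09 (−0.17 to −0.01) on the log2 scale. Leaving genes above 1% of the UMIs out of the denominator moved it to −0.43 and shifted every gene alike, Ltc4s to 0.60 and Alox5ap to 0.02, a shift as large as the ratio of the eicosanoid sum, whose direction therefore depends on the denominator. In bulk sums such as these, fewer cells of a type and less RNA per cell cannot be told apart.

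In tuft-like cells each of 9 members had UMIs in both matrices. Dclk1 (ENSMUSG00000027797, chr3:55242364-55539068 of GRCm38, plus strand), a kinase of the doublecortin family, had 557 UMIs in WT and 260 in KO. That is 559 CPM in WT (513 to 607) and 217 CPM in KO (191 to 245), or −1.37 (−1.58 to −1.15) on the log2 scale. The intervals of the 2 matrices did not overlap on this scale, but per cell the counts were close, at 3.36 UMIs in WT and 2.99 in KO. Dclk1 was detected in 82.5% of WT cells (75.9% to 88.0%) and 85.1% of KO cells (75.8% to 91.8%), and after each cell had been thinned to 1000 UMIs, which left out 8 WT cells and 1 KO cell, in 53.2% (45.1% to 61.1%) and 29.1% (19.8% to 39.9%). Thinned to 2000 UMIs, which left 109 WT and 76 KO cells, the shares were 56.9% (47.0% to 66.3%) and 42.1% (30.9% to 53.98%), and these intervals overlapped. Beside these stood Paneth-like cells, which should lack the gene, with Dclk1 in 1.42% of WT cells (median depth 22936 UMIs) and 1.63% of KO cells (median 45153 UMIs) before thinning.

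Trpm5 (ENSMUSG00000009246, chr7:143069153-143094642, minus strand), the calcium-gated channel at the end of the cascade, showed the same split between scales. It had 259 UMIs (259.8 CPM, 229 to 293) in WT and 138 UMIs (115 CPM, 96.7 to 136) in KO, or −1.17 (−1.48 to −0.87) on the log2 scale. Per cell the means were 1.56 UMIs for WT and 1.59 for KO. In thinned cells it was detected in 33.5% of WT cells (26.2% to 41.5%) and 20.9% of KO cells (12.9% to 31.0%), intervals that overlap. Tssc4 lies antisense to Trpm5 and was counted in both matrices. The study states default parameters for the counting without naming the strand, and whether reads of the pair were mixed was not tested.

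Plcb2 (ENSMUSG00000040061, chr2:118707517-118728438, minus strand), which releases calcium through inositol trisphosphate, was the only member lower in KO by CPM, per cell and in both shares of cells. It had 99 UMIs (99.3 CPM, 80.7 to 121) in WT and 27 UMIs (22.5 CPM, 14.8 to 32.8) in KO, or −2.14 (−2.81 to −1.51) on the log2 scale. Per cell it was at 0.596 and 0.310 UMIs, and in raw cells it was detected in 37.3% (29.98% to 45.2%) and 23.0% (14.6% to 33.2%). After thinning the shares were 13.3% (8.42% to 19.6%) and 4.65% (1.28% to 11.5%), with intervals that overlapped, as did those of the raw shares. Thinned to 2000 UMIs they were 22.9% (15.4% to 31.97%) and 6.58% (2.17% to 14.7%), which did not overlap.

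The gustducin subunits were near the limit of detection. Gnat3 (ENSMUSG00000028777, chr5:17962549-18019834, plus strand) had 7 UMIs in 7 WT cells and 11 UMIs in 5 KO cells, a log2 ratio of 0.39 with an interval from −1.11 to 1.99. Gnb3 (ENSMUSG00000023439, chr6:124834240-124840275, minus strand) had 3 UMIs in 1 WT tuft-like cell and 0 in KO, where a count of 0 in 1199228 UMIs allows up to 2.50 CPM by the 3-count limit and 3.08 CPM by the exact Poisson interval. No ratio can be given for Gnb3, and a difference in either gene was not detectable at this depth.

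**Figure D1:**
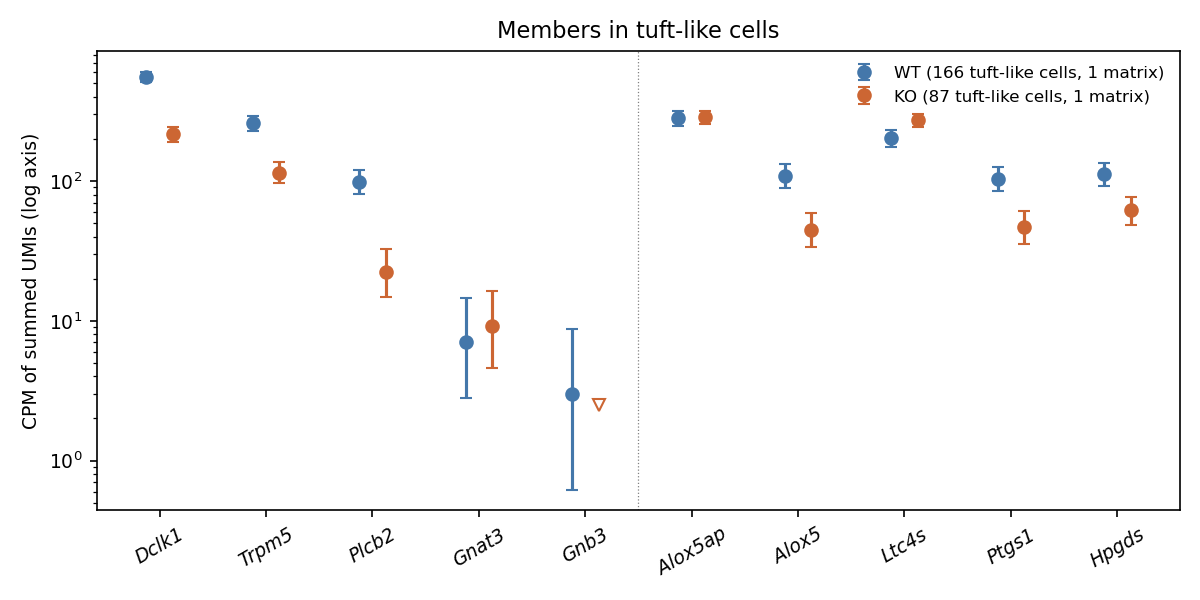
Level of each member in tuft-like cells of WT (blue) and KO (orange), as CPM of summed UMIs on a log axis, with exact Poisson 95% intervals; the open triangle marks the limit that 0 counts allow for Gnb3 in KO. Dclk1, Trpm5, Plcb2, Alox5, Ptgs1 and Hpgds sit lower in KO, while Alox5ap is level at 281 and 288 CPM and Ltc4s is higher in KO (204 and 272 CPM).

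Among the eicosanoid members, those of the leukotriene branch did not share a direction. Alox5ap (ENSMUSG00000060063, chr5:149264767-149288153, plus strand) had 280 UMIs (281 CPM, 249 to 316) in WT and 345 UMIs (288 CPM, 258 to 319.7) in KO, or 0.03 (−0.20 to 0.27) on the log2 scale whose sign turned, to −0.10, with genes above 1% of the UMIs out of the denominator. Alox5 (ENSMUSG00000025701, chr6:116410077-116461178, minus strand), the lipoxygenase that Alox5ap serves, had 109 UMIs (109 CPM, 89.8 to 132) in WT and 54 UMIs (45.0 CPM, 33.8 to 58.8) in KO, or −1.28 (−1.78 to −0.80) on the log2 scale. Ltc4s (ENSMUSG00000020377, chr11:50236461-50238616, minus strand), which conjugates leukotriene A4 with glutathione, had 203 UMIs (204 CPM, 177 to 234) in WT and 326 UMIs (272 CPM, 243 to 303) in KO, or 0.42 (0.16 to 0.68) on the log2 scale. Ltc4s was thus higher, Alox5ap level and Alox5 lower in KO as shares of all UMIs. Per cell Ltc4s averaged 1.22 UMIs in WT against 3.75 in KO, Alox5ap 1.69 and 3.97, and Alox5 0.657 and 0.621. Thinned to 1000 UMIs, Ltc4s was detected in 25.9% of WT cells (19.3% to 33.5%) and 32.6% of KO cells (22.8% to 43.5%), and thinned to 2000 in 36.7% (27.7% to 46.5%) and 51.3% (39.6% to 62.96%), with overlapping intervals both times. Alox5ap was in 36.1% of WT (28.6% to 44.1%) and 26.7% of KO cells (17.8% to 37.4%) at 1000 UMIs. At 2000 it was in 45.9% (36.3% to 55.7%) and 31.6% (21.4% to 43.3%), so its shares were lower in KO though its CPM was level. Alox5 was in 17.1% (11.6% to 23.9%) and 5.81% (1.91% to 13.05%) at 1000 and in 20.2% (13.1% to 28.9%) and 9.21% (3.78% to 18.1%) at 2000. The intervals of both genes overlapped each time.

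The prostanoid enzymes were both lower in KO as shares of UMIs. Ptgs1 (ENSMUSG00000047250, chr2:36230426-36252272, plus strand) had 104 UMIs (104 CPM, 85.2 to 126) in WT and 56 UMIs (46.7 CPM, 35.3 to 60.6) in KO, or −1.16 (−1.65 to −0.68) on the log2 scale. Hpgds (ENSMUSG00000029919, chr6:65117293-65144908, minus strand) had 112 UMIs (112 CPM, 92.5 to 135) in WT and 74 UMIs (61.7 CPM, 48.5 to 77.5) in KO, or −0.86 (−1.31 to −0.43) on the log2 scale. Per cell Ptgs1 was at 0.627 and 0.644 UMIs and Hpgds at 0.675 and 0.851, so neither was lower in KO on that scale. In cells thinned to 1000 UMIs Ptgs1 was detected in 16.5% of WT cells (11.04% to 23.2%) and 6.98% of KO cells (2.60% to 14.6%), and Hpgds in 12.7% and 11.6%. Thinned to 2000 UMIs, Ptgs1 was in 14.7% (8.63% to 22.7%) and 15.8% (8.43% to 25.96%), the opposite order, and Hpgds in 31.2% (22.7% to 40.8%) and 13.2% (6.49% to 22.9%). All these pairs of intervals overlapped, those of Hpgds at 2000 UMIs only narrowly, and overlap does not show that shares are alike. In the cells thinned to 2000 UMIs the log2 ratio of Hpgds was −1.17 (−2.19 to −0.25), an interval without 0. That of Ptgs1 was −0.54 (−1.67 to 0.51).

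With no replicates a gene was called by size alone, at a log2 ratio of at least 1 in either direction among genes with at least 50 UMIs in tuft-like cells. Of the 10 members 8 had that many UMIs, and of these 5 were lower by that size (Dclk1, Trpm5, Plcb2, Alox5 and Ptgs1) and 0 higher, with a median log2 ratio of −1.17. Of all 4634 genes with as many UMIs 566 (12.2%) were lower and 158 (3.41%) higher by that size, and their median was 0.00498. With genes above 1% of the UMIs out of the denominator, 727 were lower and 74 higher, and the median of all genes shifted to −0.13. The ratios of all genes differed with exon length. By quartile of the summed length of all exons, the median log2 ratio was 0.49, 0.18, −0.19 and −0.66 from the shortest genes to the longest, and 2.94%, 3.98%, 12.0% and 29.9% of genes were lower by the size used. Ltc4s (1014 bases) and Alox5ap (1420 bases), the members that were not lower, lie in the shortest quartile. Ptgs1 (3884 bases) lies in the next, Alox5 (4106), Trpm5 (6398), Hpgds (6425) and Plcb2 (6597) in the one after, and Dclk1 (15296) in the longest, and the ratio of each of the 8 was below the median of its quartile, Ltc4s at 0.42 against 0.49 included. The part of length in the ratios was not tested.

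**Figure D2:**
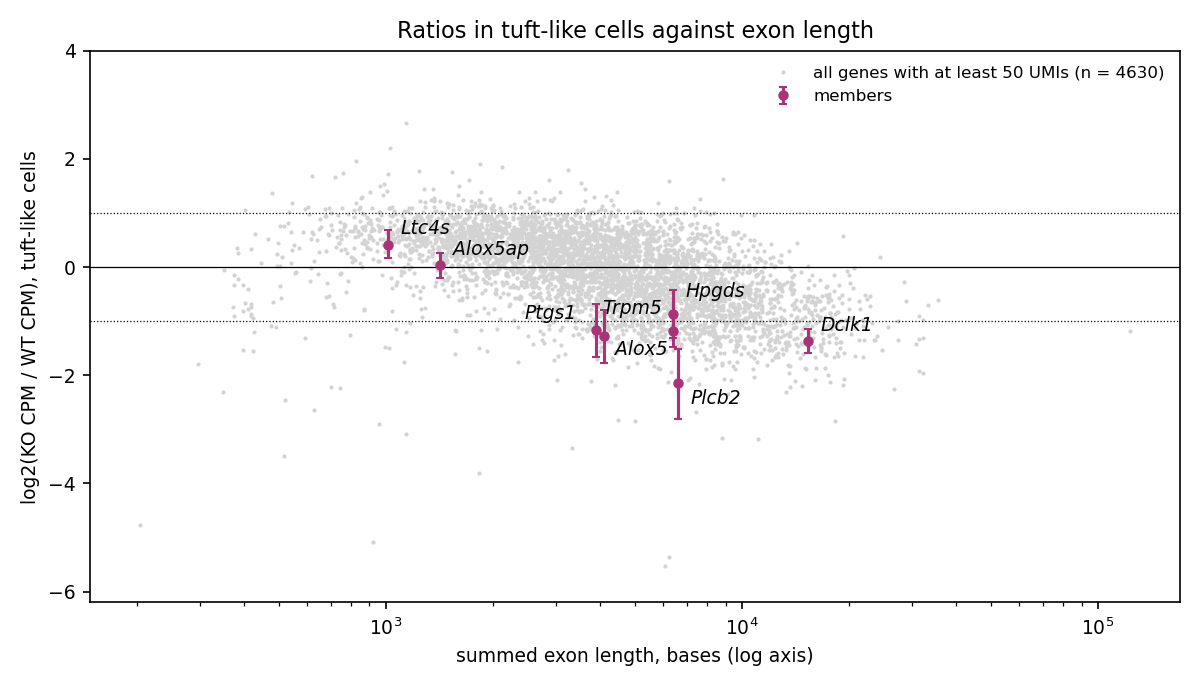
Log2 ratio of KO to WT CPM in tuft-like cells (vertical) against the summed exon length of a gene in bases (horizontal, log axis), with 4630 genes of at least 50 UMIs, a known length and UMIs in both matrices in grey and the 8 members in purple with exact 95% intervals; dotted lines mark ratios of 1 and −1. The grey cloud runs down from short to long genes, and 6 members lie below 0 while the short genes Ltc4s and Alox5ap do not.

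The depth of the cells moved with these levels as well. WT tuft-like cells with fewer than 2000 UMIs had 1568 CPM of Dclk1 (1300 to 1875) and 823 CPM of Trpm5 (632.5 to 1053), against 475 CPM (431 to 521) and 213 CPM (184 to 245) in deeper WT cells. Among cells with at least 2000 UMIs, 109 in WT and 76 in KO, Dclk1 stood at 475 and 207 CPM, Trpm5 at 213 and 106 CPM and Plcb2 at 91.3 and 21.1 CPM, and the same 5 members were lower by the size used, as were 11.02% of all genes with enough UMIs. With each of these cells thinned to 2000 UMIs, so that all weighed the same, the log2 ratio was −0.86 for Dclk1 (−1.33 to −0.40), −0.77 for Trpm5 (−1.45 to −0.13), −1.53 for Plcb2 (−2.97 to −0.31) and −0.54 for Ptgs1 (−1.67 to 0.51). Only 3 members (Plcb2, Alox5 and Hpgds) were then lower by the size used, against 7.31% of all genes with enough UMIs. These sets are unlike. The members were those with enough UMIs before thinning and may hold fewer after it, whereas the 7.31% is of the 930 genes with enough after thinning. Ltc4s stood at 0.96 (0.47 to 1.46), while the median of those 930 genes was 0.31.

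The members were found together in few barcodes. At least 3 of the 10 were detected in 164 of 13095 kept WT barcodes (1.25%, 1.07% to 1.46%) and in 104 of 8658 KO barcodes (1.20%, 0.982% to 1.45%), or −0.06 (−0.43 to 0.30) on the log2 scale. Of these barcodes 132 in WT (80.5%) and 80 in KO (76.9%) were tuft-like. Seen from the other side, 79.5% of WT tuft-like cells (72.6% to 85.4%) and 92.0% of KO ones (84.1% to 96.7%) held at least 3 members, while 0.248% of other WT barcodes (0.169% to 0.349%) and 0.280% of other KO barcodes (0.179% to 0.416%) did. The median tuft-like cell held 4 members in WT and 5 in KO, and the highest numbers were 9 and 8. Thinned to 1000 UMIs, 36.1% of WT tuft-like cells (28.6% to 44.1%) and 26.7% of KO ones (17.8% to 37.4%) held at least 3, so the raw order of the matrices was turned, with overlapping intervals both times. No member was detected in 7 WT tuft-like cells, whose median depth was 1505 UMIs.

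**Figure D3:**
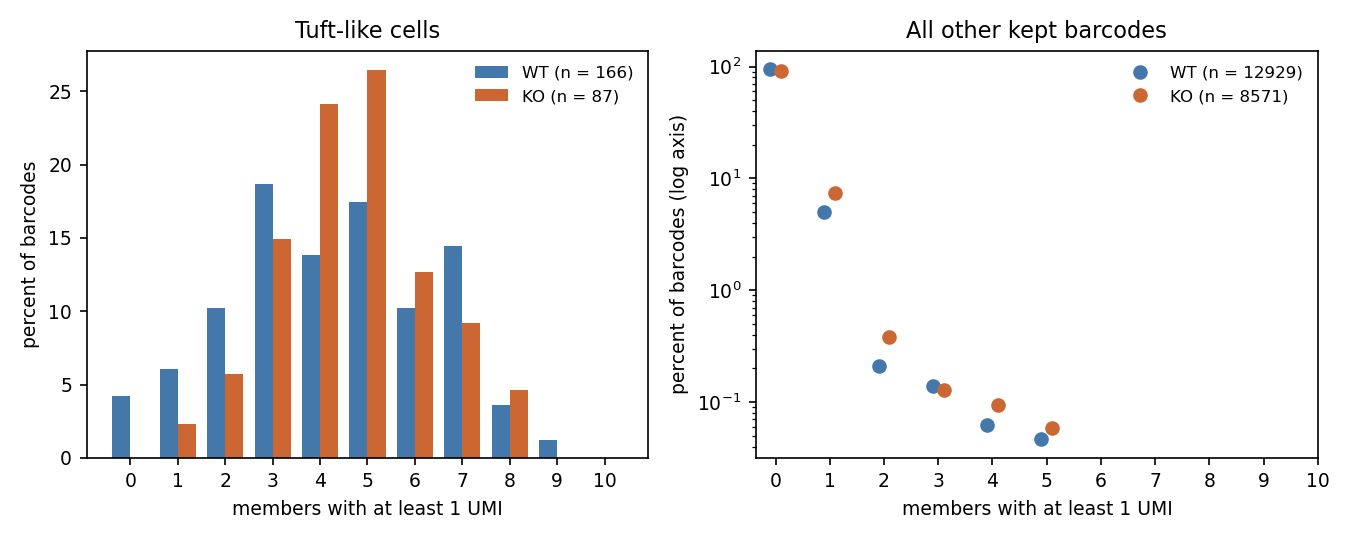
Number of members with at least 1 UMI in a barcode (horizontal) against the percent of barcodes (vertical), for tuft-like cells (left, linear axis from 0) and all other kept barcodes (right, log axis, values of 0 not drawn), WT in blue and KO in orange. Tuft-like cells centre on 3 to 5 members, whereas no other kept barcode held more than 5.

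Barcodes with at least 3 members outside the tuft-like cluster numbered 32 in WT and 24 in KO. In WT 11 were Paneth-like, 11 TAC-like (transit-amplifying), 5 goblet-like and 5 enterocyte-like, and in KO 9 were TAC-like, 7 enterocyte-like, 4 goblet-like, 2 Paneth-like, 1 enteroendocrine-like and 1 unnamed. They were deep, with a median of 12219 UMIs in WT and 19344 in KO. In 30 of the 32 and 22 of the 24, at least 3 of the 17 tuft markers were detected too, and 9 and 7 of them were among the tenth of barcodes with the highest doublet scores.

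Taste and eicosanoid members occurred in the same barcodes. At least 2 of each set were detected in 100 WT barcodes (89 tuft-like) and 62 KO barcodes (55 tuft-like). At least 2 eicosanoid members without a taste member were seen in 12 WT and 15 KO barcodes, of which 5 and 3 were tuft-like, and at least 2 taste members without an eicosanoid member in 18 and 8, of which 10 and 1 were tuft-like. In none of these barcodes were 2 or more markers of T cells, mast cells, myeloid cells, B cells or type 2 innate lymphoid cells detected. Of these, mast cells and myeloid cells also make eicosanoids. Few kept barcodes met that rule anywhere, 0 in both matrices for mast cells and 23 in WT and 18 in KO for myeloid cells. For T cells they numbered 4 and 14, for B cells 1 and 3 and for type 2 innate lymphoid cells 1 and 0. A count of 0 was therefore likely in any case, and an immune source was not tested. How often taste and eicosanoid members met at equal depth was counted in tuft-like cells thinned to 2000 UMIs, in 1 random draw. Of 37 WT cells with Trpm5, 25 also held Ltc4s (67.6%, 50.2% to 82.0%), against 15 of 72 without Trpm5 (20.8%, 12.2% to 32.0%). The shares for Alox5 were 40.5% (24.8% to 57.9%) and 9.72% (3.999% to 19.0%), and those for Alox5ap 62.2% and 37.5%, for Hpgds 45.9% and 23.6% and for Ptgs1 27.0% and 8.33%. All 5 eicosanoid members were thus detected more often beside Trpm5 in WT, for Ltc4s and Alox5 with intervals that do not overlap. In KO the order was the same for all 5, but each pair of intervals overlapped: of 20 cells with Trpm5, 12 held Ltc4s (60%, 36.1% to 80.9%), against 27 of 56 without it (48.2%, 34.7% to 62.0%). Beside Dclk1 in WT all 5 were again detected more often, with intervals apart for Ltc4s (50% of 62 cells, 37.0% to 62.98%, against 19.1% of 47, 9.15% to 33.3%) and Alox5 (32.3%, 20.9% to 45.3%, against 4.26%, 0.520% to 14.5%). Beside Plcb2 in WT this did not hold for 2 of the 5, with wide intervals. Ltc4s was in 36% of 25 cells with Plcb2 (18.0% to 57.5%) and 36.9% of 84 without (26.6% to 48.1%). Alox5 was in 16% (4.54% to 36.1%) and 21.4% (13.2% to 31.7%). In KO, Alox5ap was in 31.2% of cells with Dclk1 and 31.8% without, and Alox5 in 9.38% and 9.09%. Whether the matrices or the taste members differ in this was not tested. Equal depth does not give cells an equal share of tuft RNA, and no pair of other tuft genes was counted for comparison. Whether the 2 sets meet more often than other tuft genes do was therefore not tested.

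Outside the tuft-like cluster the members were low, and Ltc4s was the exception. Tuft-like cells held 64.4% of the UMIs of the 10 genes over kept barcodes in WT (62.6% to 66.3%) and 57.1% in KO (55.0% to 59.2%). The share was 76.9% and 73.0% for Dclk1, 81.3% and 76.1% for Alox5 and 73.7% and 78.9% for Alox5ap, but only 38.6% (34.4% to 42.9%) and 36.1% (33.0% to 39.3%) for Ltc4s. It was 57.8% and 62.2% for Ptgs1 and 48.9% and 59.2% for Hpgds. Every other member stood at 5.49 CPM or less in each class but the tuft-like one, in both matrices.

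**Figure D4:**
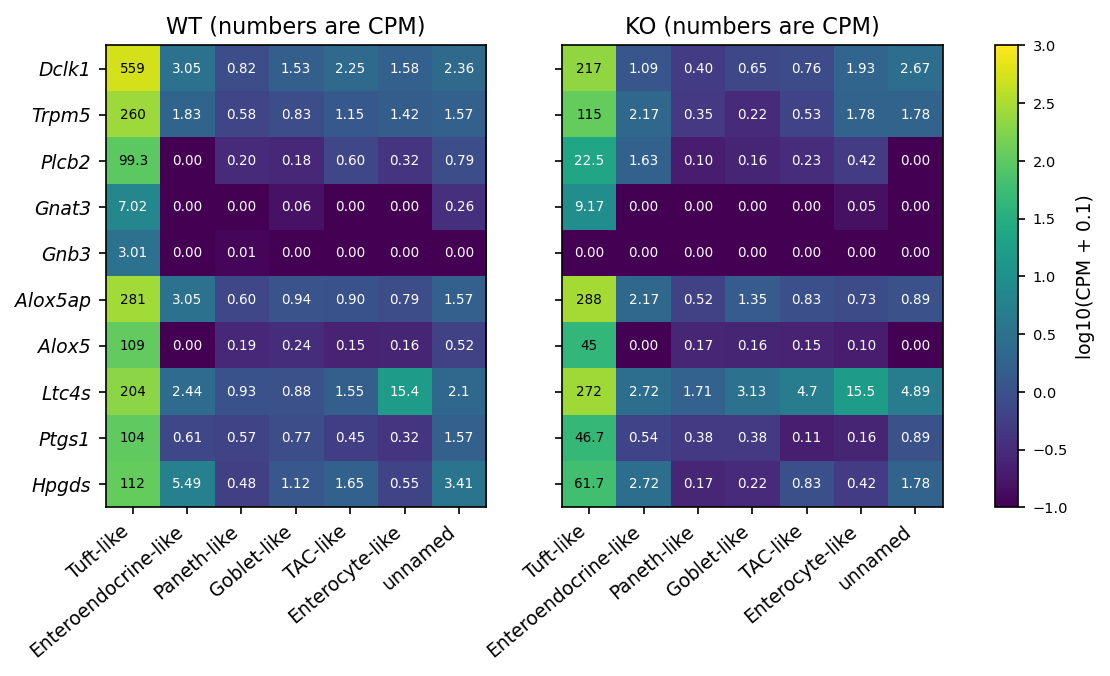
CPM of each member (rows) in each class of kept barcodes (columns) in WT (left) and KO (right), with colour on a log10(CPM + 0.1) scale and the CPM printed in each cell. In WT the tuft-like column is the highest for all 10 members, and the next highest value of a member is Ltc4s in enterocyte-like cells, at 15.4 CPM in WT and 15.5 CPM in KO.

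In enterocyte-like cells Ltc4s had 195 UMIs in WT (15.4 CPM, 13.3 to 17.7) and 297 in KO (15.5 CPM, 13.8 to 17.4), or 0.01 (−0.25 to 0.28) on the log2 scale. It was detected in 7.46% of those cells in WT (6.41% to 8.63%, median depth 5494.5 UMIs) and 8.10% in KO (7.13% to 9.16%, median 3823 UMIs). In goblet-like cells of similar depth in WT (median 6102 UMIs) the share was 0.646% (0.362% to 1.06%) and the level 0.884 CPM (0.495 to 1.46). Dclk1, by contrast, was at 1.58 CPM (0.965 to 2.44) in WT enterocyte-like and 1.53 CPM (1.001 to 2.25) in WT goblet-like cells. The ratio of Ltc4s to Dclk1 was therefore not the same in these classes. Most of the enterocyte signal lay in cluster 1, led by Fabp1, Rbp2 and Reg1, with 29.7 CPM in WT (25.3 to 34.6) and 35.2 CPM in KO (30.8 to 39.99), whereas cluster 9, led by Gsdmc4, had 3.16 CPM in WT and 4.28 in KO. The enterocyte-like class was made of different clusters in the matrices. Cluster 10 held 142 WT and 873 KO cells of it, and cluster 17 held 27 and 407.

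**Figure D5:**
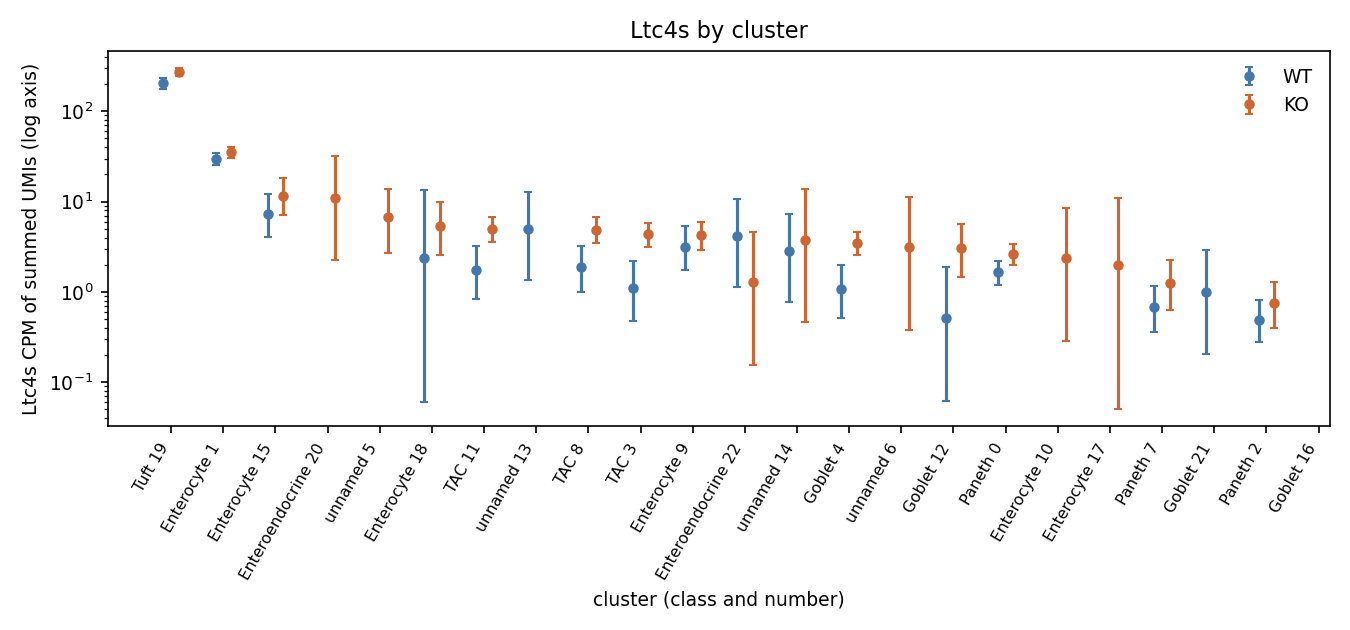
CPM of Ltc4s (log axis) in each cluster of kept barcodes, ordered by the higher of the WT (blue) and KO (orange) values, with exact Poisson 95% intervals; values of 0 are not drawn. The tuft-like cluster 19 is followed by the enterocyte-like clusters 1 and 15, and the TAC-like clusters 3, 8 and 11 lie higher in KO than in WT.

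Ltc4s was also higher in KO in 3 classes that held little of it. It stood at 1.55 CPM in WT and 4.70 in KO in TAC-like cells (log2 ratio 1.60, 1.02 to 2.21), at 0.884 and 3.13 in goblet-like cells (1.82, 0.98 to 2.75) and at 0.930 and 1.71 in Paneth-like cells (0.88, 0.40 to 1.36). Over all barcodes outside the tuft-like cluster, among which 2238 WT and 2863 KO cells were enterocyte-like, the log2 ratio was 1.003 (0.80 to 1.20). After thinning to 1000 UMIs Ltc4s was detected in 0.595% or fewer of the cells of each of these 3 classes in either matrix. In TAC-like cells, where the ratio rests on 31 UMIs in WT and 124 in KO, the thinned shares were 0.0945% (0.0114% to 0.341%) and 0.448% (0.180% to 0.920%), with overlapping intervals. Gm26542, which lies antisense to Ltc4s, was also counted in both matrices. Dclk1 (−0.63, −1.01 to −0.26), Ptgs1 (−0.99, −1.62 to −0.39) and Hpgds (−1.03, −1.54 to −0.55) were lower in KO outside the tuft-like cluster, and the intervals of Trpm5, Plcb2, Alox5ap and Alox5 included 0. Hpgds reached 5.49 CPM (2.51 to 10.4) in WT and 2.72 CPM (0.883 to 6.34) in KO enteroendocrine-like cells, on 9 and 5 UMIs.

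The members were then set among their pathways in tuft-like cells. Genes below the size used were named after their values had been seen. Of 24 further genes of the taste cascade 7 had at least 50 UMIs, of which 3 were lower in KO by the size used and 0 higher, with a median log2 ratio of −0.80, beside 12.2% of all genes lower and 3.41% higher. In cells with at least 2000 UMIs 1 of the list was lower. Itpr2 and Itpr3, the inositol trisphosphate receptors downstream of Plcb2, stood at −1.61 (−2.03 to −1.21) and −1.07 (−1.86 to −0.32), and Ffar3, a receptor of short-chain fatty acids, at −1.16 (−1.88 to −0.47). Itpr2 (14802 bases of exon) and Itpr3 (9019) lie in the longest quartile, where 29.9% of genes were lower, and Ffar3 (1849) in the shortest, where 2.94% were. Gng13, the gamma subunit that joins Gnb3, was at 86.3 CPM in WT and 62.5 CPM in KO. For 9 of the 24, among them 7 bitter receptors of the Tas2r family and the channels Calhm1 and Calhm3, no UMI was found in any kept barcode.

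Of 35 further genes for eicosanoid enzymes, transporters and receptors 9 had at least 50 UMIs, with a median of 0.54. Of these 1 was higher (Ptgr1, a prostaglandin reductase, 1.005, 0.36 to 1.68) and 0 lower, beside 3.41% of all genes higher and 12.2% lower. That count was 0 higher and 1 lower both without genes above 1% of the UMIs in the denominator and in cells with at least 2000 UMIs. The microsomal glutathione transferases Mgst1, Mgst2 and Mgst3, relatives of Ltc4s, stood at 0.85 (0.58 to 1.13), 0.61 (0.25 to 0.98) and 0.69 (0.53 to 0.85), and no more than 2.52% of the UMIs of any of them lay in tuft-like cells. Pla2g4a, which frees arachidonic acid from membranes, was at 88.3 CPM in WT and 45.0 CPM in KO (−0.97, −1.49 to −0.47). The cysteinyl leukotriene receptors Cysltr1 and Cysltr2 had no UMI in kept barcodes.

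Of 16 effector genes and factors of tuft cells 11 had at least 50 UMIs, of which 7 were lower by the size used and 0 higher, with a median of −1.35, again beside 12.2% of all genes lower. They were Ptprc (CD45, −2.85, −4.14 to −1.76), Inpp5d (−2.16), Kit (−2.06), Rac2 (−1.44), Siglecf (−1.40), Runx1 (−1.35) and Il13ra1, a receptor chain for interleukin-13 (−1.14). Ptprc, Inpp5d, Kit and Runx1 have 7602 bases of exon or more and lie in the longest quartile, with 29.9% of genes lower, and Siglecf, Rac2 and Il13ra1 in the second shortest, with 3.98%. Hmx2 and Hmx3, homeobox factors, stood at −0.31 (−0.80 to 0.19) and −0.42 (−0.97 to 0.13), and of the genes of these lists with at least 50 UMIs Hmx3 alone had over 80% of its UMIs in tuft-like cells in both matrices (81.3% and 83.3%). Il25, the cytokine by which tuft cells signal to lymphoid cells, had 6 UMIs in WT and 9 in KO tuft-like cells, of 7 and 10 over kept barcodes.

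The genes whose levels over clusters were most like the mean of the 10 members were Sh2d7, Rgs13, Alox5ap, Pygl, Sh2d6, Alox5, Spib, Matk, Ly6g6f and Ptgs1, in that order. Likeness was Pearson's r of log2(CPM + 10) over the 22 clusters with at least 20 cells in WT and the 23 in KO, ranked by the lower of both among 11137 genes, and it ran from 0.996 and 0.992 for Sh2d7 to 0.993 and 0.983 for Ptgs1. The clusters of a matrix share a library, and a single cluster, the tuft-like one, carries most of each r, so these values describe which genes peak there. Members among the 10 named are part of the mean they were compared with, and 6 of the other 7 were markers used to name the cluster. The exception was Pygl, a glycogen phosphorylase, with 119 CPM in WT and 53.4 CPM in KO tuft-like cells and 0.215 and 0.155 CPM elsewhere.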

How the data were processed

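Droplet-based single-cell libraries of EpCAM-sorted small intestinal crypt cells were analysed, 1 pooled matrix of UMI counts per group. The authors made the counts with Cell Ranger, and the deposited values are raw UMI counts per gene and barcode. The file headers name version 4.0.0, whereas the submitters' processing notes name version 2.1.1 and build mm10. A later version can call more barcodes as cells. The study states default parameters for Cell Ranger and does not name the counting strand.

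Barcodes with at least 200 genes and at most 30% mitochondrial UMIs were kept. Canonical correlation in Seurat 5.3.0, run in R 4.3.3, joined the matrices on 2000 variable genes, without mitochondrial genes, the 10 members and the pathway genes, over 30 dimensions. Clusters came from leidenalg 0.10.2 (scanpy 1.11.5, Python 3.11.15) with 15 neighbours and resolution 1, and were named "X-like" from marker lists. Scrublet called 1 WT and 0 KO barcodes as doublets and so did not work. No doublets were removed.

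Counts were summed per class and given as CPM with exact Poisson intervals. Ratios have exact conditional binomial intervals and shares have Clopper-Pearson intervals, from scipy 1.17.1, all at 95%. Genes needed 50 UMIs in tuft-like cells and a log2 ratio of 1 in size to be called. Only the ratio intervals and the thinning were run on simulated data. Those counts were drawn from the Poisson model that the intervals assume, so this checks the code alone. Clustering and naming were not simulated. All 10 members were named, and from the pathway lists those past that size or with at least 80% of their UMIs in tuft-like cells in both matrices, as well as the 10 genes most like the members. The members and lists were chosen with earlier results of these data known. Promoter sequences are from RefSeq (GRCm38.p6), and gene positions and exon lengths from GENCODE.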

Additional observations from a re-analysis of the deposited data

Results flagged for a closer look

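Barcodes that the filters had removed also held the members together. At least 3 members were detected in 9 of 2892 removed WT barcodes (0.311%, 0.142% to 0.590%) and in 10 of 4105 removed KO barcodes (0.244%, 0.117% to 0.448%), data that no comparison above used. All of them were over the mitochondrial limit, with a median of 35.1% mitochondrial UMIs in WT and 38.7% in KO, and their median depth was 1793 and 2673.5 UMIs.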

How the results depend on the processing

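No paired analysis was possible because each group came as 1 matrix, and for the same reason no replicate could be left out. Of 122 alternative values of the main results 91 stayed within their limits and 31 moved. The limits were the interval of the main value or, for a count, a set factor. A reversal was looked for only where the main log2 ratio was at least 1 in size. The 0 reversals found were therefore fixed in advance for most results. The sign of the main value was kept in 114 of the 122, and that of co-detection was not kept throughout. The log2 ratio of co-detection ran from −0.33 to 0.20 over the alternatives. The tuft-like share of co-detecting barcodes was 71.6% in WT and 59.9% in KO with at least 2 members, 92.9% and 90.2% with at least 5, 100% and 92.0% after thinning to 1000 UMIs, and 94.6% and 96.2% after thinning to 2000. The sum of the members over all barcodes moved to −0.00448 with a mitochondrial limit of 15% and to −0.43 without genes above 1% of the UMIs. Their sum in tuft-like cells was −0.82 without those genes, −0.46 in barcodes with at least 4 tuft markers and −0.53 as a mean over cells. It was −0.56 in cells with at least 2000 UMIs and −0.29 after thinning to 2000, alternatives chosen after seeing the data. The median of 8 members was −0.77 as a mean over cells. Of the same 8 members, the number lower was 2 with at least 4 tuft markers, 3 after thinning and 3 as a mean over cells. Of the member UMIs, tuft-like cells held 60.9% (WT) and 54.6% (KO) with each matrix clustered by itself, 72.1% and 64.4% with at least 4 tuft markers, and 61.0% in WT with the 15% limit. Of the eicosanoid list 0 genes were higher and 1 lower without genes above 1% of the UMIs, 2 and 1 with own clustering, and 0 and 1 in cells with at least 2000 UMIs, where 1 taste gene was lower. The cause of these moves was not tested. Of all genes called, 21.9% were higher in the main setting, against 9.24% without genes above 1% of the UMIs, 39.5% with own clustering, 35.0% with at least 4 tuft markers and 45.2% after thinning to 2000. Depth limits Gnat3 and Gnb3, and the 87 KO tuft-like cells limit every share.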
